A study of Mus musculus with 12 samples.

Results

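The genes described here are 35 mouse genes of fatty acid and triglyceride metabolism, chosen by name from the 56691 entries of a deposited table of gene counts. They cover fatty acid synthesis, desaturation and elongation, activation to acyl-CoA, triglyceride assembly, storage and breakdown, and mitochondrial oxidation. Each of the 35 had 1 entry, and all 35 had enough counts to be tested, as did 14394 genes in all. Lipoprotein lipase (Lpl) reached those counts only through treated groups in which it was high. The counts come from MC3T3-E1, an established mouse calvarial cell line that differentiates into osteoblasts. The cells had been kept for 28 days in osteogenic medium, which in every group held ascorbic acid (50 µg/ml), dexamethasone (0.1 µM) and the phosphate source beta-glycerophosphate (BGP, 10 mM). There were 4 groups of 3 libraries. The control had no further treatment, and the other groups were treated from day 27 for 24 h. The treatments were 25-hydroxyvitamin D (25(OH)D, the circulating vitamin D metabolite) at 100 µM as labelled, the same with a further 4 mM BGP, and the same with 100 µM ZK191784, a synthetic ligand of the vitamin D receptor. The unit of the 25(OH)D dose could not be checked and may be a slip, and no group received ZK191784 or the further BGP without 25(OH)D. The labels name no separate cultures behind the 3 libraries of a group, so the p-values measure the spread between these libraries, which may be technical. All libraries come from 1 cell line.

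Cells build fatty acids from cytosolic acetyl-CoA, made by ATP citrate lyase (Acly). Acetyl-CoA carboxylases (Acaca, Acacb) turn acetyl-CoA into malonyl-CoA, and fatty acid synthase (Fasn) uses that made by Acaca. The transcription factor SREBP-1 (Srebf1) is the textbook activator of these genes. Stearoyl-CoA desaturases (Scd1, Scd2) make monounsaturated fatty acids, acyl-CoA synthetases (the Acsl genes) activate fatty acids, and diacylglycerol acyltransferases (Dgat1, Dgat2) complete triglycerides. Triglycerides are stored in droplets coated by perilipins and released by lipases, and Cpt1a controls the entry of fatty acids into mitochondria. Osteoblasts are known to take up and oxidise fatty acids while they form matrix.

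In brief, the cells given 25(OH)D had more RNA of 6 members and less of 1 than the control. Higher were Dgat1, the desaturase Scd1, acetoacetyl-CoA synthetase (Aacs), lipoprotein lipase (Lpl), perilipin 3 (Plin3) and Cpt1a, and lower was the acyl-CoA synthetase Acsl3. The other 28, among them Fasn, Acaca, Srebf1, Scd2 and Dgat2, did not pass the test. The 7 called are 20% of the members, against 8.68% of all genes tested. They include Lpl, which passed the low-count filter only through treated groups. With ZK191784 added, 5 of the 6 higher members were lower than with 25(OH)D alone (14.3% of members, against 3.53% of all genes). Of these, Plin3 and Lpl kept that call in 5 and 7 of 13 alternative analyses. No member was called when BGP was added, and the same held for all 14394 genes.

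For the 4 of these 7 genes that have an entry in a RefSeq promoter table, the 250 bases before the gene start are printed so that the regions of members that moved together can be compared. They are Aacs, Plin3, Cpt1a and Acsl3, read 5′ to 3′ on the gene's strand, with coordinates on the table's own build (GRCm38.p6) and not on that of the counts. Capitals mark matches to a searched motif, which is the C/EBP motif TTGCNNAA in Aacs and the NF-Y motif CCAAT in the other 3, on either strand.
Aacs chr5:125475623-125475872 (+ strand): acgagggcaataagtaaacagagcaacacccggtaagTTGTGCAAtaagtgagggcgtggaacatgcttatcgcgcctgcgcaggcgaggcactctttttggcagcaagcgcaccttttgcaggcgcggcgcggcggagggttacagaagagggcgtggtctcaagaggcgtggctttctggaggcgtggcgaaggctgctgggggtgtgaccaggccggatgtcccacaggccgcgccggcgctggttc
Plin3 chr17:56290512-56290761 (- strand): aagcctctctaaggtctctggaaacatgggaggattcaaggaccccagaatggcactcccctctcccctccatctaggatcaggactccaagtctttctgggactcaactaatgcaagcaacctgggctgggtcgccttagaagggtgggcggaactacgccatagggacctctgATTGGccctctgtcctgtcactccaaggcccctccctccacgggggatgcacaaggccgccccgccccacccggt
Cpt1a chr19:3323051-3323300 (+ strand): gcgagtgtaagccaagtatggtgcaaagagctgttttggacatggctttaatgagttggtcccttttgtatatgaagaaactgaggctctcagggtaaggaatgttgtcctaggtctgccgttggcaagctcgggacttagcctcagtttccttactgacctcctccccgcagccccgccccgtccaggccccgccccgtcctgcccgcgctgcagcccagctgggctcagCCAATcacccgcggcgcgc
Acsl3 chr1:78657575-78657824 (+ strand): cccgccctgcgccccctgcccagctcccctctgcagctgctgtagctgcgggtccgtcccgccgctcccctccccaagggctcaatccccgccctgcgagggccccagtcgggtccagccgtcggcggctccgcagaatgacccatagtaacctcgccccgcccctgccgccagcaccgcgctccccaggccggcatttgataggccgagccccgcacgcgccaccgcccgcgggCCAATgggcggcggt
No entry was found by symbol for Dgat1, Scd1, Lpl, Scd2, Dgat2 and Fads1, so 29 of the 35 members were matched.

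The motif search covered the whole 300-base entries, from 250 bases before to 50 after each gene start. The CCAAT motif was found in 16 of the 29 matched members (55.2%) and in 41.1% of the 27025 genes in the table. Its matches began 75 bases before the gene start in Plin3, 19 before in Cpt1a and 15 before in Acsl3, so that a gene that fell had one as well as 2 that rose. The C/EBP motif was found in 3 of 29 (10.3%) against 12.2% of all genes, and began 213 bases before the start of Aacs. The E-box CACGTG was found in 5 of 29 (17.2%) against 8.09%, and the sterol regulatory element TCACNCCAC in 1 of 29, Acsl1, against 1.44%. No member had either searched form of the vitamin D response element, a direct repeat of AGGTCA or of GGTTCA with 3 bases between, within these windows, and 2 of the 27025 genes had each form. No searched motif overlapped another in the printed sequences. A match is only a run of letters and was not tested for use by a factor.

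Library totals ranged from 3318723 to 5170980 counts, and no 2 libraries held identical values. Levels are given as CPM, counts scaled to a common library total, with a correction for library composition (TMM, trimmed mean of M-values). A gene was called when its p adjusted by Benjamini-Hochberg over the 14394 genes was under 0.05 in edgeR's quasi-likelihood test. Each SE is approximate, and intervals are at 95%. The 9 osteoblast markers examined (Col1a1, Col1a2, Alpl, Bglap, Bglap2, Ibsp, Sp7, Runx2 and Ifitm5) were all detected in every group. Their summed level was 46182 to 76782 CPM in control libraries, 7151 to 13629.5 in the 25(OH)D group, 7335 to 12527 in the BGP group and 24439 to 39108 in the ZK191784 group. With 25(OH)D 7 of the 9 were called lower than control, Alpl was called higher (log2 fold change 0.93, adjusted p = 0.0138, edgeR) and Sp7 was not called. With ZK191784, 6 of those 7 were called higher than with 25(OH)D alone, and Col1a2 was not. The part of these marker changes in the changes of the members was not tested. Fewer cells of a type and less RNA per cell cannot be told apart in such bulk samples. The 9 adipocyte markers summed to 15.8 to 22.8 CPM in control libraries. The sums were 10.0 to 21.1 CPM in the 25(OH)D group, 15.7 to 21.6 in the BGP group and 23.4 to 29.3 in the ZK191784 group, and Retn was at 0 counts with 25(OH)D and with BGP. Among them, 7 had at most 18 counts in any group and were not tested, Cebpa was not called, and Fabp4 was called lower with 25(OH)D, as given further on. The 5 osteocyte markers summed to 24.7 to 32.6 CPM in control libraries, 4.23 to 10.1 in the 25(OH)D group, 14.9 to 16.9 in the BGP group and 14.8 to 20.3 in the ZK191784 group. Of these, Phex and Mepe were called lower than control with 25(OH)D. In the BGP group both were again called lower than control (log2 fold changes -2.71 and -4.20, adjusted p = 0.0024 and 0.0114, edgeR). Dmp1 was called higher than control in the BGP group (log2 fold change 2.01, adjusted p = 0.0187, edgeR). The 4 myeloid markers summed to 183 to 399 CPM in control libraries and 160 to 313 in the 25(OH)D group. Their sums were 153 to 335 CPM in the BGP group and 174 to 344 in the ZK191784 group. Among them Ptprc, a leukocyte marker, measured 327, 248 and 149 CPM in the control libraries, and Cd68 measured 65.7, 47.8 and 29.7. The other myeloid markers were scarce there, with Adgre1 at 4.08, 0.632 and 1.67 CPM and Csf1r at 1.92, 1.90 and 1.90. The myeloid sums thus came mainly from Ptprc. Sums over chondrocyte, myeloid, endothelial and muscle markers overlapped between all groups. The endothelial marker Cdh5 and the muscle marker Myog had 0 counts in every library. The muscle marker Ckm had 1 count, in a BGP library, so the muscle sums rested on Acta1. Of the 14 genes in these lists Col2a1 was called. This cartilage collagen was lower with 25(OH)D than in control (log2 fold change -4.68, adjusted p = 0.000131, edgeR) and higher with ZK191784 than with 25(OH)D alone (4.02, adjusted p = 0.00118, edgeR), and its part in the results was not tested either.

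Comparing 25(OH)D with control, 6 members were called higher and 1 lower, which is 20% of the 35, against 8.68% of all genes tested (4.76% higher and 3.93% lower). The median log2 fold change of the members was -0.21 and that of all genes -0.05, so the members as a list did not lie above the rest. The 28 members not called had log2 fold changes from -1.37 to 0.48, of which 10 were above 0 and 18 below. For 16 of them the interval lay within a 2-fold change in either direction, and for the other 12 it did not. The groups did not overlap in 14 of the 35 members, against 21.9% of all genes. The 7 called members are spread over all 6 steps of the pathway that were examined. The share called ran from 12.5% (1 of 8, acetyl-CoA supply and fatty acid synthesis) to 33.3% (1 of 3, mitochondrial oxidation). Whether any step differed from the 8.68% of all genes was not tested.

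**Figure D1:**
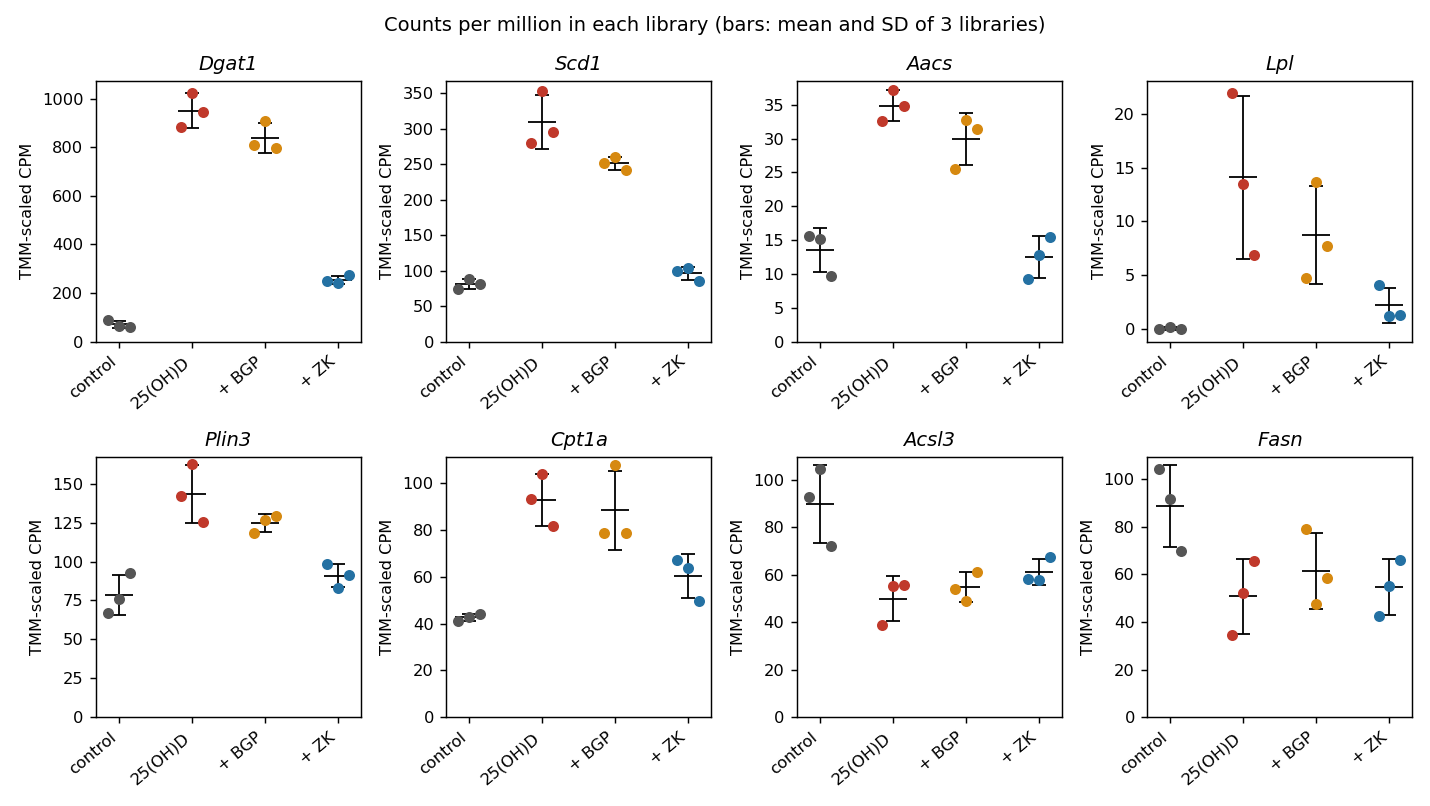
Level of 8 members in each of the 12 libraries, in TMM-scaled CPM on linear axes that start at 0; points are libraries, and bars show the mean and SD of 3 libraries. Dgat1 stood at 60.7 to 87.0 CPM in control, 882 to 1024 with 25(OH)D, 795 to 907 with BGP added and 243 to 272 with ZK191784 added, while Fasn was lower than control with 25(OH)D but was not called.

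Of the 6 members of triglyceride assembly, Dgat1 was called. The gene encodes one of 2 enzymes that join an acyl-CoA to diacylglycerol. It measured 87.0, 63.4 and 60.7 CPM in the control libraries and 882, 1024 and 945 CPM with 25(OH)D. Every library with 25(OH)D was above every control library. The fitted rise was 13.5-fold, a log2 fold change of 3.75 (SE 0.17, adjusted p = 4.5e-08, edgeR). With BGP added the libraries measured 808, 907 and 795 CPM, overlapping those with 25(OH)D alone. With ZK191784 added they measured 248, 243 and 272 CPM, between the other groups and overlapping none of them. The fall against 25(OH)D alone was 3.73-fold (log2 fold change -1.90, SE 0.15, adjusted p = 2.53e-05, edgeR), and the level remained 3.61-fold above control (log2 1.85, SE 0.15, adjusted p = 9.16e-05, edgeR). Hsf1, whose gene lies 102 bases from Dgat1 on the opposite strand in GENCODE M21, had a total of 216 counts in the control libraries and 225 in those given 25(OH)D.

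Dgat2 encodes the other acyltransferase, which shares no sequence family with Dgat1. It measured 8.56 to 20.9 CPM in control and 8.29 to 15.8 with 25(OH)D, and was not called (log2 fold change -0.27, interval -1.02 to 0.49, adjusted p = 0.73, edgeR). Gpam, the mitochondrial glycerol-3-phosphate acyltransferase that begins glycerolipid synthesis, was at 22.8 to 27.3 CPM in control and 20.3 to 27.7 with 25(OH)D. Its log2 fold change was 0.00, with an interval from -0.39 to 0.39. The phosphatidate phosphatases Lpin1 and Lpin2 had log2 fold changes of 0.37 and -0.38, and neither was called. Agpat2, a lysophosphatidate acyltransferase, was scarce, with 2.11 to 4.996 CPM in control and 0.264 to 2.67 with 25(OH)D, and its interval reached from -2.72 to 0.07. Within this step the called change was thus that of Dgat1, with intervals for Gpam, Lpin1 and Lpin2 that stayed inside a 2-fold change.

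In desaturation and elongation, 1 of 7 members was called. Scd1 encodes the delta-9 desaturase that makes oleate and palmitoleate. Its level was 73.9, 87.7 and 80.6 CPM in control and 280.3, 353 and 295 CPM with 25(OH)D, with every treated library above every control library. The rise was 3.83-fold (log2 fold change 1.94, SE 0.14, adjusted p = 3.02e-06, edgeR). Libraries with BGP measured 252, 259.7 and 241 CPM, all below those with 25(OH)D alone and above control. With ZK191784 they measured 99.3, 103 and 85.7 CPM, which is 3.22-fold below 25(OH)D alone (log2 fold change -1.69, SE 0.14, adjusted p = 2.66e-05, edgeR). The lowest of these lay below the highest control library, and against control the log2 fold change was 0.25 with an interval from -0.05 to 0.55 (adjusted p = 0.903, edgeR).

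Scd2 encodes another delta-9 desaturase. It measured 27.1 to 50.2 CPM in control and 18.2 to 34.0 with 25(OH)D, with a log2 fold change of -0.56 (interval -1.31 to 0.19, adjusted p = 0.433, edgeR). The difference between the responses of Scd1 and Scd2 was not tested. The delta-5 and delta-6 desaturases Fads1 and Fads2, which make polyunsaturated fatty acids, had log2 fold changes of 0.04 and -0.60 and were not called. Fads2 measured 41.9 to 56.1 CPM in control and 21.7 to 37.8 with 25(OH)D, groups that did not overlap (adjusted p = 0.156, edgeR). The elongases Elovl1, Elovl5 and Elovl6 lay at -0.24, -0.21 and -0.78, and none was called. Elovl6, which extends palmitate to stearate, measured 6.96 to 7.91 CPM in control and 3.37 to 5.88 with 25(OH)D.

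Among the 8 genes of acetyl-CoA supply and fatty acid synthesis, Aacs was called. It encodes a cytosolic enzyme that activates acetoacetate, a ketone body, for lipid synthesis. The control libraries measured 15.6, 15.2 and 9.75 CPM and those with 25(OH)D 32.6, 37.1 and 34.9 CPM, without overlap. The rise was 2.58-fold (log2 fold change 1.37, SE 0.24, adjusted p = 0.00291, edgeR). With BGP added Aacs stood at 25.5, 32.8 and 31.4 CPM, above every control library. With ZK191784 added it stood at 9.21, 12.8 and 15.4 CPM, within or just below the control range. The fall against 25(OH)D alone was 2.79-fold (log2 fold change -1.48, SE 0.24, adjusted p = 0.00373, edgeR), and the log2 fold change against control was -0.12 (interval -0.65 to 0.42).

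Fasn, the multifunctional enzyme that makes palmitate, did not rise with Scd1 and Dgat1. It measured 104, 91.5 and 69.9 CPM in control and 34.5, 52.1 and 65.8 CPM with 25(OH)D, each treated library being below each control library. The log2 fold change was -0.80 (SE 0.27, interval -1.38 to -0.22), with an adjusted p of 0.0961 by edgeR. The libraries measured 78.8, 47.3 and 58.4 CPM with BGP and 42.4, 55.2 and 65.9 CPM with ZK191784, so Fasn in the ZK191784 group also lay below every control library. Fasn was called lower in 3 of 13 alternative analyses of 25(OH)D against control, those without a low-count filter (adjusted p = 0.0111, edgeR), with the library count ratio described further on as a covariate (adjusted p = 8.71e-05, edgeR) and without 25(OH)D library 3 (adjusted p = 0.0436, edgeR).

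Acaca, which makes the malonyl-CoA used by fatty acid synthase, measured 17.98, 14.3 and 30.9 CPM in control libraries and 27.0, 18.3 and 18.8 CPM after 25(OH)D. It measured 21.0, 34.7 and 23.3 CPM in the BGP group and 21.3, 19.5 and 18.3 CPM in the ZK191784 group. All groups overlapped, and the log2 fold change with 25(OH)D was 0.02 (interval -0.63 to 0.67). Srebf1 measured 15.8, 8.64 and 5.71 CPM in control libraries and 13.1, 8.44 and 9.51 CPM after 25(OH)D. It measured 10.4, 9.63 and 7.71 CPM in the BGP group and 6.35, 9.40 and 10.4 CPM in the ZK191784 group. Its log2 fold change with 25(OH)D was 0.04 (interval -0.75 to 0.83), and the groups overlapped throughout. Me1, the malic enzyme that supplies NADPH, measured 20.6, 16.2 and 49.0 CPM in control and 14.4, 12.8 and 5.81 with 25(OH)D. Its log2 fold change of -1.37 had an SE of 0.56 and an adjusted p of 0.184 by edgeR. Acly, Acacb and Acss2 lay at -0.35, -0.54 and -0.23, and were not called.

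In the activation step, 1 of 4 acyl-CoA synthetases was called. Acsl3, an isoform of the endoplasmic reticulum and of lipid droplets, measured 92.8, 105 and 72.3 CPM in control and 39.05, 55.2 and 55.7 CPM with 25(OH)D. The groups did not overlap, and the fall was 1.80-fold (log2 fold change -0.85, SE 0.19, adjusted p = 0.0124, edgeR). Acsl3 measured 54.1, 49.0 and 61.3 CPM with BGP and 58.1, 57.6 and 67.4 CPM with ZK191784, below every control library in both. With ZK191784 it was called against neither 25(OH)D alone (log2 fold change 0.29, interval -0.12 to 0.70) nor control (-0.56, interval -0.96 to -0.16, adjusted p = 0.38, edgeR). The call against control was lost when the 2 groups were fitted alone (adjusted p = 0.0771, edgeR), without control library 2 (adjusted p = 0.0591, edgeR) and without 25(OH)D library 1 (adjusted p = 0.0569, edgeR). Utp14b, which overlaps Acsl3 on the same strand in GENCODE M21, had 154 counts over the control libraries and 111 over those given 25(OH)D. Acsl1, Acsl4 and Acsl5 had log2 fold changes of -0.41, -0.37 and -0.11 and were not called, although all 4 values of the step lay below 0.

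Of the 7 genes of droplets, lipolysis and lipoprotein hydrolysis, Lpl and Plin3 were called. Lpl encodes the secreted lipase that frees fatty acids from circulating lipoproteins. It had 0, 1 and 0 counts in the control libraries, and 82, 56 and 26 counts with 25(OH)D, or 21.9, 13.5 and 6.87 CPM. No treated library came near the control level. The summed 164 counts against 1, scaled for library size, give a ratio of 184 with an exact interval from 32.6 to 7323, which covers counting error only. By edgeR the adjusted p was 0.000381, and the exact permutation test of 3 libraries against 3 gave p = 0.1, the smallest it can give. Lpl passed the low-count filter only through treated libraries, so a level above control was partly built into its being tested. Its p-values against control are therefore not independent support for a rise. Lpl measured 4.77, 13.7 and 7.71 CPM with BGP and 4.09, 1.21 and 1.305 CPM with ZK191784. The ZK191784 libraries lay below all of those with 25(OH)D alone (log2 fold change -2.64, SE 0.60, adjusted p = 0.0288, edgeR). They held 31 counts against 1 in control, a ratio of 29.8 with a counting interval from 4.97 to 1216, which was not called (adjusted p = 0.125, edgeR).

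Plin3 encodes a perilipin that moves from the cytosol to young lipid droplets. It measured 66.9, 75.9 and 92.5 CPM in control and 142, 162 and 125 CPM with 25(OH)D, without overlap. The rise was 1.83-fold (log2 fold change 0.87, SE 0.15, adjusted p = 0.00304, edgeR). Plin3 stood at 118, 127 and 129 CPM with BGP and at 98.3, 83.2 and 91.3 CPM with ZK191784. The last group lay below every library with 25(OH)D alone (log2 fold change -0.66, SE 0.15, adjusted p = 0.0345, edgeR) and overlapped the control (log2 0.21, interval -0.12 to 0.55). Ticam1, which lies 690 bases from Plin3 on the same strand in GENCODE M21, had 233 counts over the control libraries, 685 over those given 25(OH)D, 447 over the BGP group and 323 over the ZK191784 group. How far reads of Ticam1 and Plin3 could be exchanged in the counting was not tested.

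Plin2, the perilipin that usually follows droplet content, measured 113 to 176 CPM in control and 154 to 225 with 25(OH)D, and was not called (log2 fold change 0.26, interval -0.17 to 0.68). Pnpla2 encodes adipose triglyceride lipase, which takes the first fatty acid off a triglyceride. It measured 27.8, 13.3 and 13.3 CPM in control libraries and 22.2, 23.1 and 28.3 CPM after 25(OH)D. It measured 29.2, 20.8 and 29.5 CPM in the BGP group and 18.4, 25.6 and 23.9 CPM in the ZK191784 group. Control library 1 lay above all 3 ZK191784 libraries and within the ranges of the other 2 treated groups, the remaining control libraries lay below every treated library, and the log2 fold change with 25(OH)D was 0.44 (interval -0.20 to 1.08, adjusted p = 0.479, edgeR). Lipe and Mgll, the next lipases of the chain, and G0s2, an inhibitor of adipose triglyceride lipase, stayed under 7 CPM in all 12 libraries. Their log2 fold changes with 25(OH)D of 0.48, -1.04 and -0.39 had intervals that reached a 2-fold change, so at this depth such a change could not be told from none.

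In mitochondrial oxidation, 1 of 3 members was called. Cpt1a encodes carnitine palmitoyltransferase 1A, the gate for long-chain fatty acids into mitochondria. The control libraries measured 41.2, 42.8 and 44.0 CPM and those with 25(OH)D 93.1, 104 and 81.6 CPM, without overlap. The rise was 2.18-fold (log2 fold change 1.12, SE 0.18, adjusted p = 0.00121, edgeR). Cpt1a measured 78.5, 108 and 78.5 CPM with BGP and 67.4, 63.6 and 49.8 CPM with ZK191784, the latter above every control library and below every library with 25(OH)D alone. The ZK191784 group was called against neither of them, with a log2 fold change of -0.62 against 25(OH)D alone (interval -1.002 to -0.246, adjusted p = 0.0816, edgeR) and 0.50 against control (interval 0.12 to 0.88, adjusted p = 0.446, edgeR). DESeq2 did call the first of these differences (adjusted p = 0.0146). The acyl-CoA dehydrogenases Acadm and Acadl, which carry out the first step of beta-oxidation, had log2 fold changes of 0.29 and 0.41 with 25(OH)D and were not called.

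**Figure D2:**
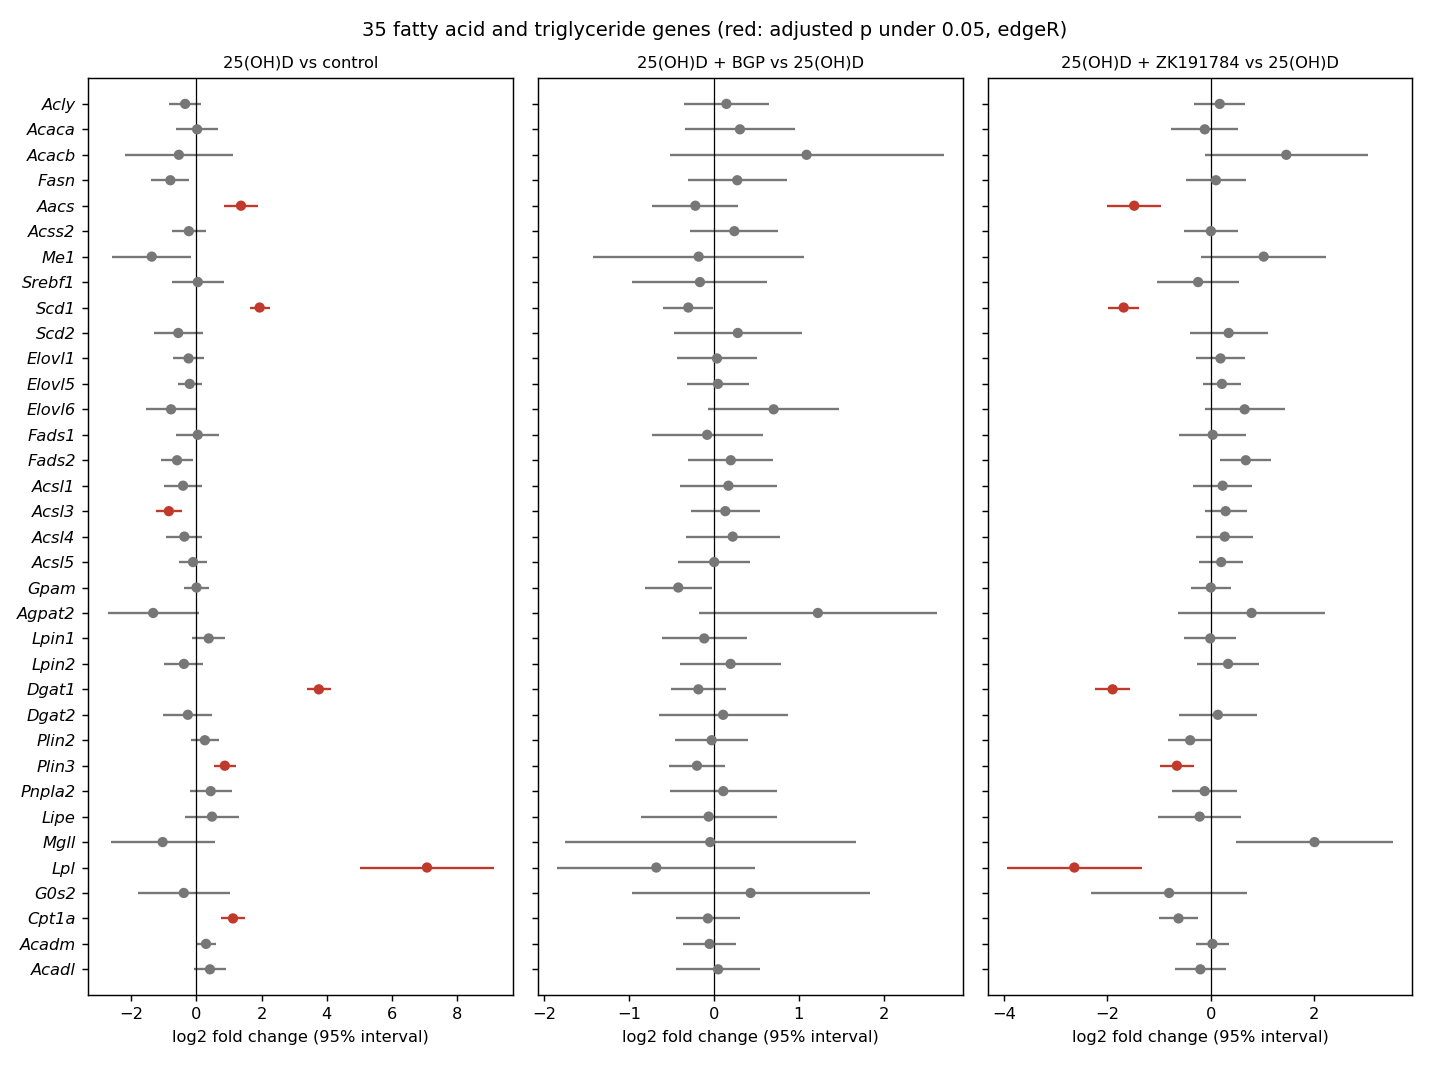
Log2 fold change with its 95% interval for each of the 35 members in 3 comparisons, with called members in red and the others in grey. With 25(OH)D 6 members were called higher and 1 lower, with BGP added none, and with ZK191784 added 5 lower.

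Added BGP changed no member beyond the threshold, and the same held for all 14394 genes (0.00% called). By edgeR 2 members, Scd1 and Gpam, had an unadjusted p under 0.05, as had 268 genes in all (1.86%). DESeq2 likewise called 0 genes, with 291 at an unadjusted p under 0.05. The members' log2 fold changes against 25(OH)D alone lay between -0.68 (Lpl) and 1.22 (Agpat2), with a median of 0.05 against -0.02 for all genes. For 27 of the 35 the interval stayed inside a 2-fold change, and for the remaining 8 it did not. Dgat1 had an interval from -0.51 to 0.14, Scd1 from -0.60 to -0.01 and Cpt1a from -0.45 to 0.30. The BGP group compared with control had the same 6 members called higher and the same 1 lower (20%, against 8.25% of all genes, 3.90% higher and 4.35% lower), a comparison that shares its control libraries with the first. The log2 fold changes there were 3.57 for Dgat1, 1.64 for Scd1, 1.15 for Aacs, 1.05 for Cpt1a, 0.67 for Plin3 and -0.71 for Acsl3, and Lpl had 121 counts against 1. Plin3 lost this call in 4 of 13 alternatives and Acsl3 in 7, among them the analyses without control library 1, without control library 2 and without BGP library 3 for both, with adjusted p between 0.0587 and 0.157 by edgeR. Acsl3 lost it also without BGP library 1 (adjusted p = 0.0887, edgeR) and without BGP library 2 (adjusted p = 0.16, edgeR).

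ZK191784 was compared with 25(OH)D alone, and 5 members were lower and 0 higher (14.3%, against 3.53% of all genes, 2.11% lower and 1.42% higher). The 5 were Dgat1, Scd1, Aacs, Lpl and Plin3, which are 5 of the 6 that rose with 25(OH)D. The 2 comparisons share the 25(OH)D libraries. The members' median log2 fold change was 0.04 and that of all genes 0.02, and the groups did not overlap in 11 members, against 17.6% of all genes. The falls of Dgat1, Scd1 and Aacs were called in all 13 alternatives. The fall of Plin3 was called in 5 and that of Lpl in 7. Both calls were lost without 25(OH)D library 1, without 25(OH)D library 2, without ZK191784 library 2 and without ZK191784 library 3, with adjusted p from 0.0863 to 0.194 by edgeR, and that of Plin3 also without ZK191784 library 1 (adjusted p = 0.0841, edgeR). Leaving out libraries moved the log2 fold change of Plin3 between -0.75 and -0.55 and that of Lpl between -3.44 and -2.18.

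Against control, the ZK191784 group had 1 member called, Dgat1, which was higher (2.86% of members, against 0.723% of all genes, 0.507% higher and 0.215% lower). An unadjusted p under 0.05 was reached by 6 members, against 6.67% of all genes. Of the other 34, 26 had intervals inside a 2-fold change and 8 did not. Among the members that rose with 25(OH)D the levels with ZK191784 fell at different distances from control. Fitted levels against control were 1.19-fold for Scd1, 0.92-fold for Aacs, 1.16-fold for Plin3, 1.41-fold for Cpt1a and 3.61-fold for Dgat1. For Lpl the ratio of summed counts was 29.8, with the wide counting interval given before. Whether Dgat1 kept a larger share of its rise than Scd1 was not tested.

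**Figure D3:**
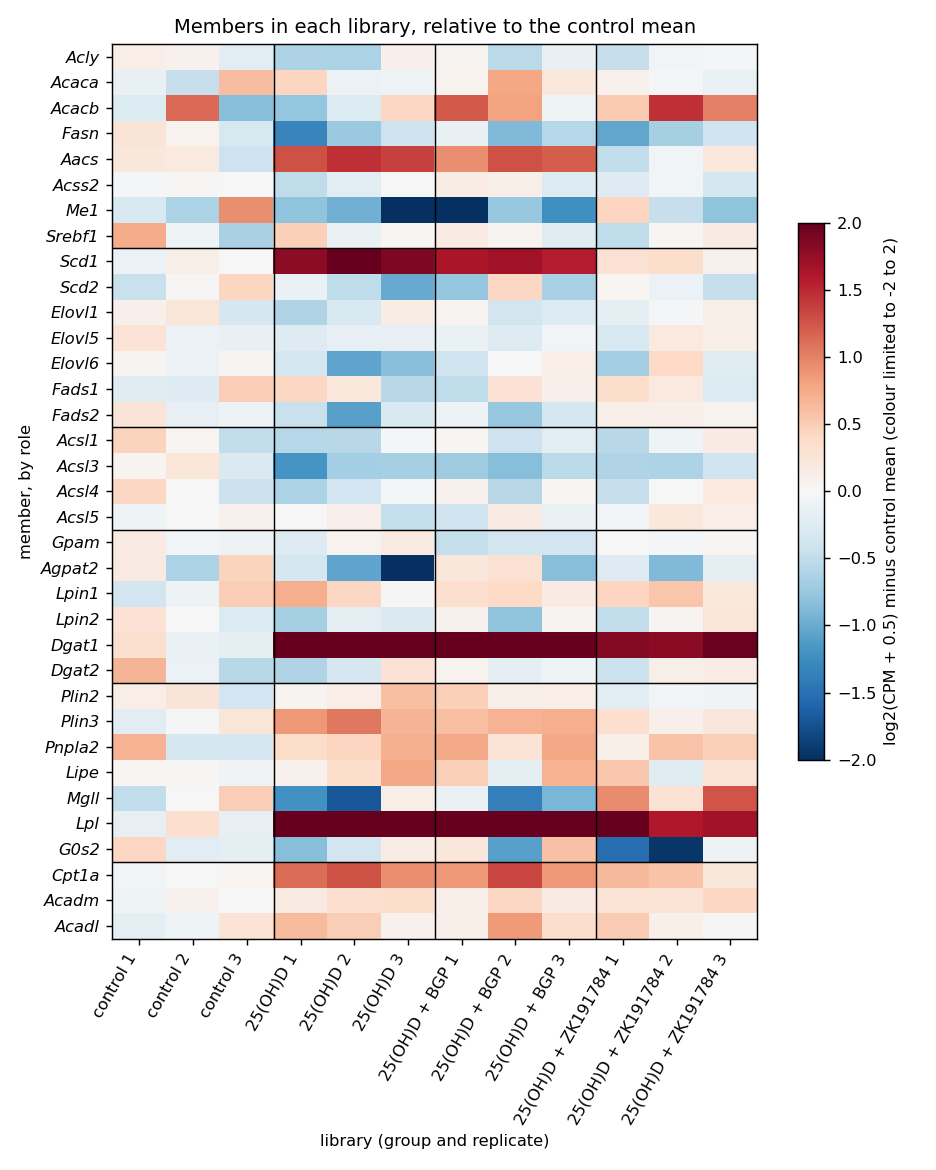
Level of each member in each library as log2(CPM + 0.5) minus the mean of the 3 control libraries, with colour limited to -2 to 2, members ordered by role and libraries by group. Dgat1, Scd1, Aacs, Lpl, Cpt1a and Plin3 are red in all 3 libraries with 25(OH)D, and Fasn and Acsl3 are blue.

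The libraries of a group also differed among themselves in a way that touched many members. A count ratio chosen after seeing the data, the log2 of ribosomal protein gene counts over pseudogene and Gm-numbered gene counts, ran from -1.88 to -0.66 in control, from -1.85 to -0.53 with 25(OH)D, from -1.75 to -0.53 with BGP and from -1.67 to -0.87 with ZK191784. The group means were -1.44, -1.21, -1.16 and -1.25, closer together than the libraries of any group. In all 4 groups the library of highest ratio exceeded that of lowest ratio in 8 members: Acaca, Me1, Scd2, Fads1, Lpin1, Plin3, Cpt1a and Acadl. It lay below it in all 4 groups in 11 members: Acly, Acacb, Fasn, Elovl1, Elovl5, Acsl1, Acsl3, Acsl4, Lpin2, Dgat2 and Plin2. The other 16, among them Dgat1, Scd1, Aacs and Lpl, showed neither pattern. How many of all 14394 tested genes showed either pattern was not counted, so these numbers are not known to be particular to the members.

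**Figure D4:**
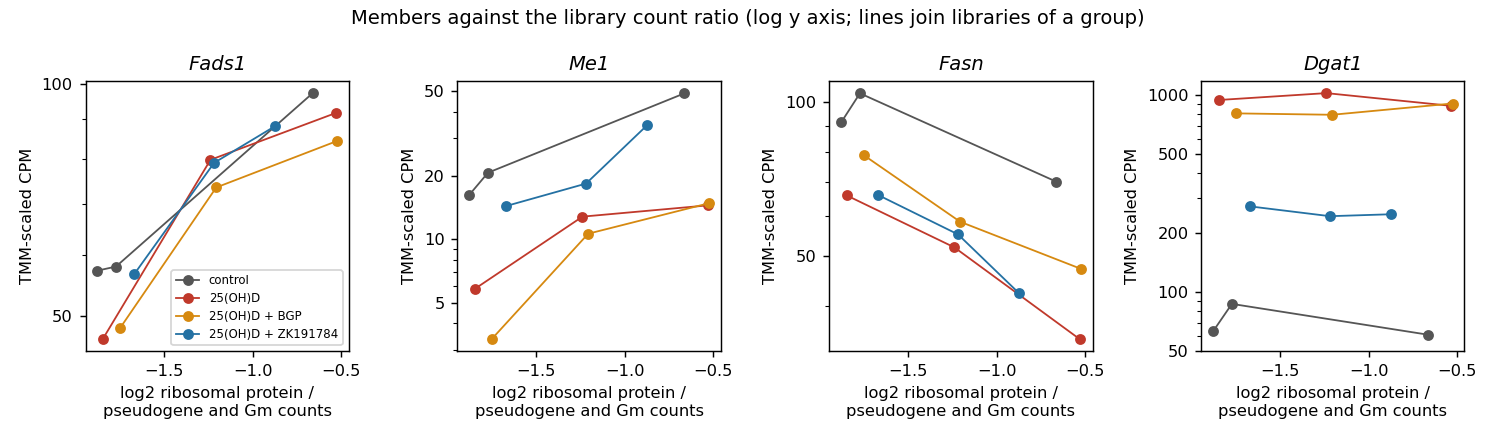
Level of Fads1, Me1, Fasn and Dgat1 (TMM-scaled CPM, log axis) against the log2 of ribosomal protein over pseudogene and Gm-numbered counts, with lines joining the 3 libraries of a group. Within every group Fads1 and Me1 are higher and Fasn lower in the library of highest ratio than in that of lowest ratio, and Dgat1 shows neither pattern.

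With this ratio as a covariate, 25(OH)D against control gave 7 members higher and 5 lower in place of 6 and 1. The added calls were Plin2 higher (log2 fold change 0.35, adjusted p = 0.0192, edgeR), and Fasn (-0.69, adjusted p = 8.71e-05, edgeR), Me1 (-1.60, adjusted p = 1.05e-06, edgeR), Scd2 (-0.74, adjusted p = 0.00203, edgeR) and Fads2 (-0.55, adjusted p = 0.0203, edgeR) lower. The 7 original calls remained. In that fit Fasn was also lower than control with BGP (-0.38, adjusted p = 0.0333, edgeR) and with ZK191784 (-0.59, adjusted p = 0.0019, edgeR). Against 25(OH)D alone, the ZK191784 group then had Me1, Fads2 and Mgll higher (1.11, 0.68 and 2.04) and Cpt1a and Plin2 lower (-0.62 and -0.40). The ratio is itself a sum over genes of these libraries, and what it stands for was not tested.

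The pathway was widened to 85 further genes, of which 62 had enough counts to be tested. With 25(OH)D 6 of the 62 rose and 3 fell (14.5%, against 8.68% of all genes), with a median log2 fold change of 0.01. These counts moved to 10 and 6 with DESeq2, to 13 and 8 with the library count ratio as a covariate, to 4 and 2 with a replicate block, to 4 and 0 with the 2 groups alone, and to between 4 and 9 higher and between 0 and 2 lower when 1 library was left out, with 9 and 0 without 25(OH)D library 3. Insig2, which retains the SREBP escort protein in the endoplasmic reticulum, measured 188, 173 and 216 CPM in control and 548, 520.0 and 461 CPM with 25(OH)D, without overlap. Its log2 fold change was 1.41 (SE 0.13, adjusted p = 2.44e-05, edgeR). With ZK191784 Insig2 measured 290.1, 277 and 251 CPM, lower than with 25(OH)D alone (-0.90, SE 0.13, adjusted p = 0.00167, edgeR) and above every control library without being called (adjusted p = 0.154, edgeR). Of the 10 regulators tested it was the one called with 25(OH)D (10%, against 8.68% of all genes).

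Of 7 further genes of glycerolipid synthesis tested, 3 of the AGPAT family of lysophospholipid acyltransferases rose (42.9%, against 8.68% of all genes). Agpat3 went from 33.1, 33.9 and 28.1 CPM in control to 175, 173 and 109 with 25(OH)D (log2 fold change 2.26, SE 0.27, adjusted p = 0.000135, edgeR), and measured 66.1, 60.7 and 50.0 with ZK191784 (-1.37 against 25(OH)D alone, adjusted p = 0.00952, edgeR). Agpat5 went from 39.3, 43.2 and 40.2 CPM to 85.0, 101 and 89.5 (1.17, SE 0.16, adjusted p = 0.000418, edgeR) and to 49.1, 59.5 and 53.1 with ZK191784 (-0.77 against 25(OH)D alone, adjusted p = 0.0149, edgeR). Neither gene overlapped its control range in the libraries with 25(OH)D. Agpat4 rose with overlap between the groups (0.98, adjusted p = 0.0457, edgeR), and the call was lost in 6 of 13 alternatives, 4 of them without 1 library (control library 1 or 2, 25(OH)D library 1 or 2; adjusted p up to 0.183 by edgeR). Against 25(OH)D alone, the ZK191784 calls were lost without ZK191784 library 3 for Agpat3 and Agpat5, without ZK191784 library 2 for Agpat3, and without 25(OH)D library 2 or ZK191784 library 1 for Agpat5, with adjusted p up to 0.0554 for Agpat3 and 0.0919 for Agpat5 by edgeR.

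In elongation, Hacd2, a dehydratase of the fatty acid elongation cycle, rose from 9.59, 10.7 and 10.9 CPM to 25.9, 23.1 and 24.0 (log2 fold change 1.22, SE 0.24, adjusted p = 0.0058, edgeR). Of 19 oxidation genes tested 1 rose and 1 fell (10.5%, against 8.68% of all genes). Eci1, an enoyl-CoA isomerase, rose by 0.73 (adjusted p = 0.029, edgeR), a call lost in 8 of 13 alternatives, including those that omit any control library or 25(OH)D library 1 or 2 (adjusted p up to 0.12 by edgeR). Acaa2, the mitochondrial thiolase, measured 42.4, 55.0 and 45.4 CPM in control, 26.2, 33.7 and 23.2 with 25(OH)D, and 57.3, 51.8 and 52.2 with ZK191784. It fell with 25(OH)D (-0.78, SE 0.18, adjusted p = 0.014, edgeR), a call lost when control library 2 or 25(OH)D library 1 or 3 was omitted, and with the 2 groups alone (adjusted p up to 0.0956 by edgeR). It was higher with ZK191784 than with 25(OH)D alone (0.95, SE 0.18, adjusted p = 0.00859, edgeR), which was called in all 13 alternatives. Acaa2 thus fell with 25(OH)D, while Cpt1a and Eci1 rose.

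The fatty acid binding proteins Fabp4 and Fabp5, which carry fatty acids in the cytosol, fell with 25(OH)D. They were the 2 called of 5 further genes of activation and uptake tested (40%, against 8.68% of all genes). Fabp4 had 76 counts over the control libraries and 10 over those given 25(OH)D (log2 fold change -2.72, SE 0.67, adjusted p = 0.0222, edgeR), and Fabp5 had 82 and 9 (-2.99, SE 0.84, adjusted p = 0.0466, edgeR). With ZK191784 neither was called against 25(OH)D alone. Fabp4 had 61 counts there, without overlap (log2 fold change 2.31, adjusted p = 0.0962, edgeR). Fabp5 measured 4.91, 2.17 and 0.870 CPM with ZK191784 and 0, 0.964 and 1.32 with 25(OH)D alone. Fabp5, which had the largest p of the 9 called genes, was named after its value was seen. The call of Fabp4 was lost in 4 of 13 alternatives (omitting control library 3 or 25(OH)D library 2 or 3, and with the 2 groups alone; adjusted p up to 0.105 by edgeR). That of Fabp5 was lost in 8, including without any 1 control or 25(OH)D library (adjusted p up to 0.144 by edgeR). With ZK191784 4 of the 62 further genes were lower than with 25(OH)D alone and 1, Acaa2, was higher (8.06%, against 3.53% of all genes). Beside Insig2, Agpat3 and Agpat5, the fourth was Lmf1, a factor needed for the folding of lipoprotein lipase, at 57.5, 65.3 and 62.3 CPM with 25(OH)D and 32.1, 34.96 and 26.7 with ZK191784 (-0.98, SE 0.19, adjusted p = 0.0133, edgeR). Its call was lost without 25(OH)D library 2 and without ZK191784 library 1 or 3 (adjusted p up to 0.0769 by edgeR). Added BGP changed 0 of the 62 by edgeR, with 1 at an unadjusted p under 0.05. The BGP group against control had 4 higher, Insig2, Agpat3, Agpat5 and Hacd2, and 4 lower, Fabp4, Fabp5, Acaa2 and Acaa1a (12.9%, against 8.25%). The 4 lower became 1 with a replicate block, without control library 3 and without any 1 BGP library, 2 without control library 2 and with the 2 groups alone, and 9 with the library count ratio as a covariate. Of the 13 alternatives, Acaa1a and Acaa2 each lost the call in 8, Fabp5 in 5 and Fabp4 in 3. The 4 higher became 8 with that covariate and between 3 and 6 when 1 library was left out, Hacd2 losing its call in 3 alternatives. The 4 genes lower with ZK191784 than with 25(OH)D alone became 9 with the covariate, 2 without 25(OH)D library 2 or ZK191784 library 1 and 1 without ZK191784 library 3, and the 1 higher became 7 with the covariate, 4 with DESeq2, 3 without a low-count filter and 2 without 25(OH)D library 1. The ZK191784 group against control had 0 called by edgeR, with 8 at an unadjusted p under 0.05, 1 higher with DESeq2 or without a low-count filter, and 4 higher and 1 lower with the covariate.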

How the data were processed

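RNA of 12 libraries was sequenced by 3' mRNA-seq (QuantSeq, per the labels' protocols). The deposited table holds raw counts per gene symbol and library, made by the authors, per the submitters' processing notes, on mouse genome mm39 using featureCounts (Subread 2.0.3) and STAR 2.7.9a; those notes also name DESeq2 1.38.2. For annotation release, strand and filters the sources used here give nothing, and overlapping and antisense genes cannot be told apart.

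Every column was mapped to a sample by its description. Of 56691 entries, 20212 had 0 counts throughout, and 882 with a repeated symbol were kept apart. The filterByExpr filter, at a minimum count of 10 and a minimum total of 15, kept 14394 genes holding 99.4% of the counts. They were scaled by TMM and fitted by edgeR 4.0.16 (R 4.3.3) with robust quasi-likelihood, 1 coefficient per group, over all 12 libraries and 5 comparisons. The SE is the absolute log2 fold change over the square root of F. The common biological coefficient of variation was 0.292. For Lpl, counts were summed by group and their ratio given with an exact binomial interval.

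The members, the 85 further genes and the markers were chosen with earlier results of these data known. Values per library are given for called members and for Srebf1, Acaca, Fasn, Scd1, Cpt1a and Pnpla2. Of the further genes, up to 8 called per comparison, of smallest p, are named. The alternatives tried were each library left out in turn, only the 2 groups compared, the replicate number as a block, other filters (none, or a CPM of at least 2 in 3 libraries), RLE scaling and DESeq2 1.42.0. The library count ratio as covariate, and all alternatives for the further genes, were added after seeing the data. Promoters are from RefSeq (GRCm38.p6), and neighbours from GENCODE M21. Figures were drawn with matplotlib 3.10.9.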

Additional observations from a re-analysis of the deposited data

How the results depend on the processing

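The rises of Dgat1, Scd1, Aacs, Lpl, Plin3 and Cpt1a with 25(OH)D and the falls of Dgat1, Scd1 and Aacs with ZK191784 were called in all 13 alternatives run. Counts of members called that moved by over 1.5 times were these. Without a low-count filter, 3 were lower with 25(OH)D than in control (1 in the reported analysis), 2 lower with BGP than in control (1) and 2 higher with ZK191784 than in control (1). With DESeq2, 2 were higher with ZK191784 than in control. With the 2 groups alone, 0 were lower with 25(OH)D and 0 with BGP against control, and 3 lower with ZK191784 against 25(OH)D (5). With the library count ratio, 5 were lower with 25(OH)D, 4 lower with BGP, and 2 higher and 2 lower with ZK191784, all against control, and 3 higher with ZK191784 against 25(OH)D (0). Leaving out 1 library gave 0 to 2 lower with 25(OH)D, 0 to 1 lower with BGP against control and 3 to 5 lower with ZK191784 against 25(OH)D. The cause was not tested.

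Libraries of the same replicate number did not steadily deviate together. Over 18 pairs the correlation of deviations ran from -0.721 to 0.628, with 4 over 0.1. Of 12 libraries, 3 correlated best with their own number. The library count ratio was not removed from these deviations, so it could hide a shared replicate effect, and pairing was not excluded. With a replicate block, 3 members were lower with ZK191784 against 25(OH)D (Plin3 and Lpl not called, adjusted p = 0.0955 and 0.057 by edgeR) and 0 lower with BGP against control (Acsl3, adjusted p = 0.0736 by edgeR). The block took the genes called with 25(OH)D from 1250 to 953.

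All values that changed sign belonged to differences that were not called. They numbered 21 with 25(OH)D against control, 34 with BGP against 25(OH)D and 27 with ZK191784 against 25(OH)D. Against control they numbered 23 with BGP and 33 with ZK191784. The largest was 1.21, for Mgll with BGP against 25(OH)D. Listed here are those of 25(OH)D against control and, for the other comparisons, those of members called with 25(OH)D. With 25(OH)D against control, the library ratio turned Acaca to -0.0823 and Fads1 to -0.118, and Gpam came to -0.0063 with the 2 groups alone and -0.0045 with the block. Leaving out 1 library gave -0.21 to 0.42 for Acaca, -0.16 to 0.35 for Fads1, -0.0914 to 0.12 for Gpam, -0.22 to 0.52 for Srebf1, -1.08 to 0.62 for Acacb, -0.21 to 0.0525 for Acsl5 and -0.57 to 0.16 for Dgat2. It gave -0.0137 to 0.22 for Acsl3 and -0.23 to 0.0187 for Cpt1a with BGP against 25(OH)D, and -0.30 to 0.0771 for Aacs with ZK191784 against control. RLE scaling moved the median of all genes by under 0.1 in each comparison. Depth limits Lpl, Mgll, G0s2, Lipe, Agpat2 and Acacb, which had few counts.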
